A study of Mus musculus with 10 samples.

Results

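Apoa2, Shisa7, Lphn2, Fut1, Tmem255a, Mfsd4, Cnpy2 and Gm10736 are 8 genes with lower mean read counts in osteocytes of myeloma-bearing mice than in osteocytes of control mice, among 22548 genes in the deposited table. They were chosen by their read counts in the comparison of MM with No MM, in the same 10 libraries. The comparison of the groups is therefore given for them as a description, without a test. The question was whether each gene was high in all 5 No MM libraries or only in the 2 libraries labelled No MM that were rich in immunoglobulin transcripts. Of the 8 genes, 7 passed the filter on low counts, and Shisa7 did not.

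Osteocytes came from the femurs of male C57BL/6 mice with a labelled age of 8 weeks. The MM group had received Vk12598 cells, a Vk*MYC mouse myeloma line, by injection into the femur (n = 5, mice 6 to 10). The No MM group had received no myeloma cells (n = 5, mice 1 to 5), and the paper's methods describe injection of PBS for control mice. In the paper, mice were examined 6 weeks after injection, and whether the labelled age is that at injection is not known here. Bone pieces were stripped of marrow and digested in turn with collagenase and EDTA, and the cells released were collected. One library per mouse was made with a stranded total RNA kit, so the SD between libraries includes both mouse and preparation, and 1 injected cell line stands for myeloma throughout.

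Osteocytes are the cells embedded in mineralized bone, and they signal to osteoblasts and osteoclasts at its surface. Myeloma is a malignancy of plasma cells, the antibody-secreting end stage of the B lineage, which grows in the marrow next to bone. The 8 genes have unrelated roles: Apoa2 encodes an apolipoprotein of high-density lipoprotein, Fut1 a fucosyltransferase, Mfsd4 a transporter of the major facilitator superfamily, Lphn2 an adhesion receptor, Shisa7 an auxiliary protein of neurotransmitter receptors and Cnpy2 a protein of the endoplasmic reticulum. Tmem255a encodes a membrane protein, and Gm10736 is annotated as a pseudogene.

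Between 31099174 and 39466332 reads were counted per library, and 3 counts corresponded to between 0.0709 and 0.114 CPM, where CPM are read counts scaled to library size by the TMM method. Immunoglobulin genes took 26.84% and 29.27% of the counts in the libraries that carry the labels No MM 3 and No MM 4, against 0.644% to 3.98% in the other 8, and 1.06% to 1.99% in MM. Nearly all kappa variable reads of these 2 libraries fell on 1 gene, Igkv4-91 (99.6% and 99.8%). With this many immunoglobulin reads from 1 kappa gene in mice labelled as without myeloma cells, the labels of these 2 libraries are in question. They were not tested, and groups follow the labels throughout. Every difference of MM from No MM below depends on that. Values without the 2 libraries are also given for the genes that passed the filter and for part of the marker lists. They are not given for Shisa7 or for the lists of related genes. Osteocyte markers were counted in every library, with Sost, which encodes sclerostin, at 68.3 CPM or more. The mean log2 CPM of 10 osteocyte markers was 4.28 in No MM 3 and 4.01 in No MM 4, below the range of the other 8 (4.56 to 6.31). In bulk samples, fewer cells of a type and less RNA per cell cannot be told apart.

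The promoters of the 3 genes with the steepest difference between libraries (Fut1, Mfsd4 and Shisa7) are shown with that of Cnpy2, a gene with a much flatter profile. The sequences are those of RefSeq on GRCm38.p6, from 250 bases before to 50 bases after the start, written 5′ to 3′ on the strand of the gene. They lie at chr7:45617356-45617655 (Fut1, plus strand), chr1:132068013-132068312 (Mfsd4, minus strand), chr7:4844647-4844946 (Shisa7, minus strand) and chr10:128322209-128322508 (Cnpy2, plus strand). Capitals mark matches on either strand to the CCAAT box (CCAAT), the TATA box (TATAAA), the GC box (GGGCGG), the E-box (CANNTG), the octamer (ATGCAAAT) and an unfolded protein response element (TGACGTG).
Fut1: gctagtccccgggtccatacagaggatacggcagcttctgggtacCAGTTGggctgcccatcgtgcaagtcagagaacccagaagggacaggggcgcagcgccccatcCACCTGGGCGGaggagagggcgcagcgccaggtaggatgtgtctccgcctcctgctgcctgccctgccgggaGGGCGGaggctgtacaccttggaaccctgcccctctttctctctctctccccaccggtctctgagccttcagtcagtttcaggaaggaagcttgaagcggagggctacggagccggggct
Mfsd4: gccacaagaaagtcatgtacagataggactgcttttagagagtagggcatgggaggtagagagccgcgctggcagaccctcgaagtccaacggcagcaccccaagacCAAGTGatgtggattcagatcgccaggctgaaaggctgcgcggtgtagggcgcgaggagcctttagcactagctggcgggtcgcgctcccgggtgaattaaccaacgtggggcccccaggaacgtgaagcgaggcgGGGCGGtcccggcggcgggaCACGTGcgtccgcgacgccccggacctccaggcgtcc
Shisa7: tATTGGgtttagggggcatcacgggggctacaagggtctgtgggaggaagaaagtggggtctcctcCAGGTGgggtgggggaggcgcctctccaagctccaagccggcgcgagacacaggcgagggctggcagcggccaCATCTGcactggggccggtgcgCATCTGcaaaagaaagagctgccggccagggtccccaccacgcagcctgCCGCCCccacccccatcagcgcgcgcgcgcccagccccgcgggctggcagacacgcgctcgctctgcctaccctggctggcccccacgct
Cnpy2: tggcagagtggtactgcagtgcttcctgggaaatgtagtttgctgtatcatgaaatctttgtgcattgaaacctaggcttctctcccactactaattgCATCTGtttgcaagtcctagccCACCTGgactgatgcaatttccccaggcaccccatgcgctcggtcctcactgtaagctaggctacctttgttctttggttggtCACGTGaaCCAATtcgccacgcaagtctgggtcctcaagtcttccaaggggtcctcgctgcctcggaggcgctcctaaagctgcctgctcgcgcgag

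Within these windows, the Fut1 promoter held 2 GC boxes and 2 E-boxes, of which 1 pair overlaps, and its GC content was 64.7%. That of Mfsd4 held 1 GC box and 2 E-boxes (64.3% GC), and that of Shisa7 held 1 CCAAT box, 1 GC box and 3 E-boxes (70.3% GC). The Cnpy2 promoter held 1 CCAAT box and 3 E-boxes, no GC box, and 53.3% GC, near the median of 52.7% over all promoters. Among 32851 promoters of this length, 35.7% held a GC box, 37.4% a CCAAT box, 13.6% a TATA box and 72.3% an E-box. The octamer stood in 1.74% and the unfolded protein response element in 2.01%, and neither was found in the windows of the 7 genes with a RefSeq promoter. A match is a string of letters and not a measured binding site.

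Over all genes, edgeR called 0 of 16186 lower in MM (0% at an adjusted p under 0.05), and 0 higher. At an unadjusted p under 0.05, 1664 genes were lower and 617 higher, and DESeq2 called 155 lower and 34 higher after adjustment. All 5 MM values lay below all 5 No MM values for 110 genes (0.68%), among them 2 of the 7 filtered genes under study, Lphn2 and Gm10736. When No MM 3 and No MM 4 were set aside, all 5 MM values lay below No MM 1, 2 and 5 for 219 genes (1.35%), again with Lphn2 and Gm10736 among them. No MM 3 and No MM 4 both exceeded the other 8 libraries for 3890 genes (24%). This order held for Apoa2, Lphn2, Fut1, Tmem255a, Mfsd4 and Cnpy2, and also for Shisa7 on its unfiltered counts. The choice of the genes used these values, so nothing is read from those counts.

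**Figure D1:**
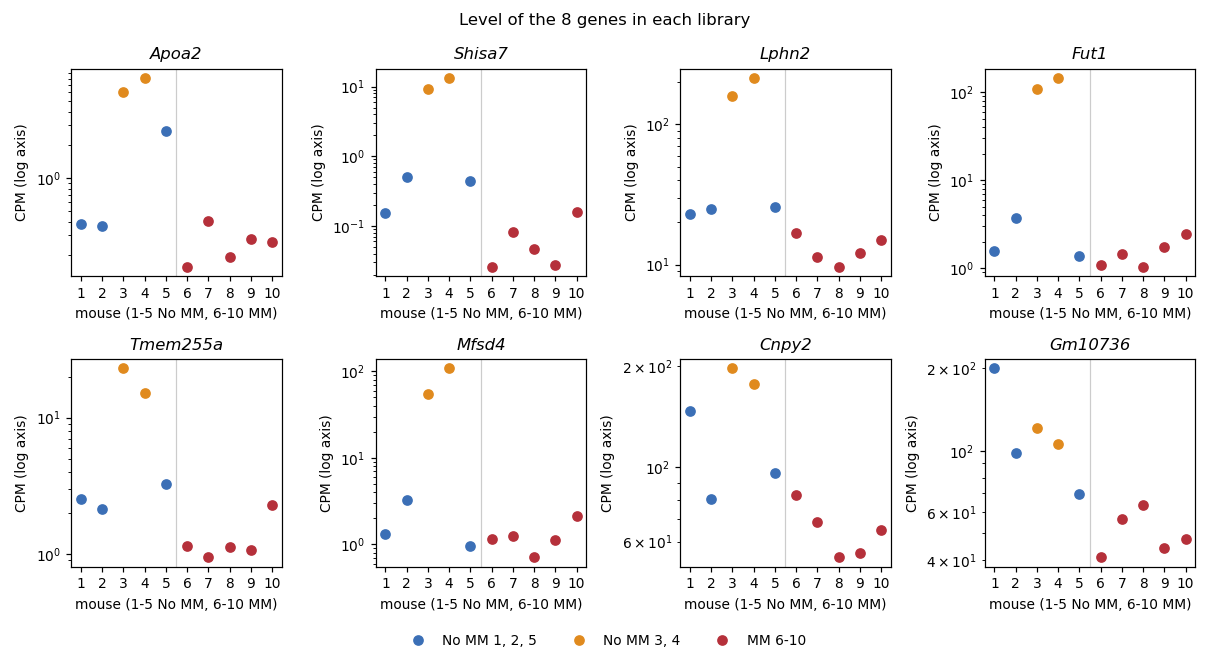
CPM of each gene (log axis, with its own range in every panel) in the 10 libraries, No MM 1 to 5 on the left of the line and MM 6 to 10 on the right; each point is 1 mouse. The orange points, No MM 3 and No MM 4, are the highest in every panel except that of Gm10736, where No MM 1 is highest at 200.0 CPM.

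Fut1, which encodes the enzyme that adds the terminal fucose of the H antigen to glycans, was a gene of the 2 immunoglobulin-rich libraries. Its level in No MM 1 to 5 was 1.56, 3.77, 109.5, 145.3 and 1.40 CPM, and in MM 6 to 10 it was 1.09, 1.46, 1.04, 1.74 and 2.45 CPM. Both immunoglobulin-rich libraries stood 29.0-fold or more above every other library, while No MM 1 and No MM 5 lay inside the MM range. Of the summed No MM level, 97.4% came from No MM 3 and No MM 4, where an even spread would give 40%. The log2 fold change of MM over No MM was -5.07 (SE 1.34). Without those 2 libraries it was -0.55. Fut1 (ENSMUSG00000008461) lies on the plus strand at chr7:45617606-45621059 in the table.

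Mfsd4, now also named Mfsd4a, followed the same order of libraries. It was measured at 1.33, 3.29, 54.7, 108.4 and 0.956 CPM in No MM 1 to 5, and at 1.16, 1.24, 0.709, 1.13 and 2.13 CPM in MM 6 to 10. No MM 5 lay below 4 of the 5 MM libraries, and No MM 3 and No MM 4 held 96.7% of the No MM sum. Its log2 fold change was -4.72 (SE 1.28) with all libraries and -0.56 without No MM 3 and No MM 4. Without No MM 4 alone it was -3.56. Mfsd4 (ENSMUSG00000059149, chr1:132022806-132068062, minus strand) shares bases with Elk4 and Gm26892, both on the opposite strand. Elk4, a transcription factor gene, did not share its order of libraries, since No MM 3 and No MM 4 were not above the other 8, and Gm26892 had at most 4 counts in any library.

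Shisa7 was nearly uncounted outside No MM 3 and No MM 4. Its raw counts in No MM 1 to 5 were 4, 18, 281, 365 and 18, and in MM 6 to 10 they were 1, 3, 2, 1 and 6. In CPM, No MM 3 and No MM 4 stood at 9.08 and 13.2, and the other 8 libraries between 0.0259 and 0.507, in part under the 3-count limit. No MM 2 and No MM 5 were above all MM libraries, while No MM 1 was below MM 10. The immunoglobulin-rich pair held 95.3% of the No MM sum. A fit without the filter gave a log2 fold change of -6.02 (SE 1.31), a value that rests on those 2 libraries and on 1 to 6 counts per MM library. The gene (ENSMUSG00000053550) lies at chr7:4825552-4844696 on the minus strand.

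Lphn2, also called Adgrl2, is a latrophilin, an adhesion receptor that binds teneurins and FLRT proteins on neighboring cells. Among these 8 genes it was the one that was both high in No MM 3 and No MM 4 and higher in all other No MM libraries than in MM. The No MM libraries 1 to 5 had 22.9, 24.9, 159.7, 214.5 and 25.8 CPM, and the MM libraries 6 to 10 had 16.8, 11.4, 9.64, 12.02 and 15.1 CPM. The groups did not overlap, and No MM 1, 2 and 5 lay within a narrow band of 24.5 ± 1.47 CPM (SD, n = 3), against 13.0 ± 2.90 CPM (SD, n = 5) in MM. Of the No MM sum, 83.6% came from No MM 3 and No MM 4. The log2 fold change was -2.78 (SE 0.673) with all libraries, and -0.93 without No MM 3 and No MM 4. Lphn2 (ENSMUSG00000028184, chr3:148815586-148989316, minus strand) overlaps the antisense gene Gm43573, which was not analysed here.

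Tmem255a showed the same shape at a lower level. In No MM 1 to 5 it was at 2.51, 2.14, 23.0, 15.2 and 3.26 CPM, and in MM 6 to 10 at 1.14, 0.946, 1.13, 1.08 and 2.29 CPM. No MM 1 and No MM 5 were above every MM library, and No MM 2 was above all but MM 10. The 2 immunoglobulin-rich libraries held 82.8% of the No MM sum. Its log2 fold change of -2.80 (SE 0.711) was -1.02 without them. The gene (ENSMUSG00000036502, chrX:38196573-38252439, minus strand) ends within Zbtb33 on the opposite strand, and in Zbtb33 No MM 3 and No MM 4 were also above the other 8 libraries, by a log2 difference of 1.14 from MM. Whether any reads were shared was not tested.

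Apoa2, a protein of high-density lipoprotein made mainly by the liver, was high in 3 libraries labelled No MM. Its levels in No MM 1 to 5 were 0.381, 0.366, 6.01, 8.09 and 2.70 CPM, and in MM 6 to 10 they were 0.155, 0.405, 0.189, 0.276 and 0.260 CPM. No MM 5, the library with the smallest immunoglobulin share, was above every MM library, whereas No MM 1 and No MM 2 were below MM 7. These were small numbers, from 6 to 15 reads per library in MM and from 10 to 223 in No MM. In all, 80.4% of the No MM sum came from No MM 3 and No MM 4. The log2 fold change was -3.75 (SE 0.865), and -2.17 without those 2 libraries, when No MM 5 was the 1 No MM library above the MM range. Other liver transcripts were high in No MM 5 as well. Alb, which encodes albumin, was at 4.88 CPM there and at most 0.324 CPM in the other 9 libraries, and Apoc3 was at 0.809 CPM against at most 0.0517 CPM. Apoa1, the main protein of high-density lipoprotein, was at 0.452, 0.218 and 0.392 CPM in No MM 3, 4 and 5, and at most 0.0517 CPM in the rest, with no more than 16 counts in any library. Of the 8 hepatocyte markers in the table, 3 passed the filter (Serpina1a, Ahsg and Cyp2e1), and these were highest in MM 6. The part of liver transcripts in the level of Apoa2 was not tested. Apoa2 (ENSMUSG00000005681) lies at chr1:171225054-171226379 on the plus strand.

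Cnpy2, of the canopy family of endoplasmic reticulum proteins, had the smallest share of its No MM level in the immunoglobulin-rich libraries among the coding genes. No MM 1 to 5 had 146.8, 80.6, 197.2, 177.7 and 96.4 CPM, and MM 6 to 10 had 82.6, 68.5, 53.9, 55.5 and 65.0 CPM. No MM 3 and No MM 4 were the 2 highest libraries, but No MM 1 stood at 146.8 CPM, and 4 of the 5 No MM libraries were above all of MM. The remaining No MM 2 lay just under MM 6. No MM 3 and No MM 4 held 53.7% of the No MM sum. The log2 fold change was -1.10 (SE 0.256) with all libraries and -0.75 without No MM 3 and No MM 4. Cnpy2 (ENSMUSG00000025381) lies at chr10:128322459-128327187 on the plus strand.

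Gm10736 was the gene of the 8 that did not follow the immunoglobulin-rich libraries. In No MM 1 to 5 it was counted at 200.0, 98.6, 121.4, 106.2 and 69.9 CPM, and in MM 6 to 10 at 40.9, 56.2, 63.3, 44.3 and 47.6 CPM. Every No MM library was above every MM library, with No MM 1 highest and No MM 5 closest to MM. The share of No MM 3 and No MM 4 in the No MM sum was 38.2%, close to the even share. The log2 fold change was -1.24 (SE 0.262), and -1.31 without No MM 3 and No MM 4.

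Gm10736 (ENSMUSG00000096842, chr13:111593534-111593611, minus strand) is annotated as a processed pseudogene of 78 bases, and its whole sequence is shown because it decides what its counts can mean. It was read from the GENCODE M21 transcripts on GRCm38, with the first and the last codon of its reading frame in capitals.
Gm10736: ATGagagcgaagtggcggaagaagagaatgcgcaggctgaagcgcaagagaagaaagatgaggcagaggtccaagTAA
All 78 bases occur exactly in 6 transcripts of 3 other genes. These are Rpl41, which encodes a protein of the large ribosomal subunit, and the predicted genes Gm10180 and Gm10076. Of the 7 annotated Rpl41 transcripts, 3 hold the whole sequence. Within these bases, a read from 1 copy cannot be told from a read of another, and how such reads were assigned is not given in the sources used here. The count of Gm10736 is therefore uncertain.

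The counts of Gm10736 moved with those of Rpl41. They came to 9.05%, 9.38%, 7.65%, 7.70% and 8.89% of the Rpl41 counts in No MM 1 to 5, and to 6.49%, 7.25%, 8.28%, 5.26% and 6.78% in MM 6 to 10. The ranges overlapped, since MM 8 was above No MM 3 and No MM 4. Rpl41 itself was at 1403 ± 546 CPM (SD, n = 5) in No MM and at 743 ± 80.1 CPM (SD, n = 5) in MM, a log2 fold change of -0.92 (SE 0.287, adjusted p = 0.315 in edgeR), which did not pass the threshold.

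**Figure D2:**
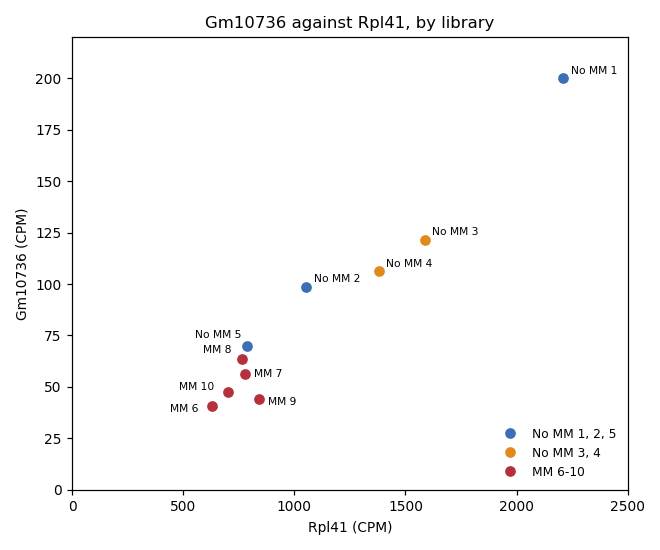
Gm10736 against Rpl41 in CPM, 1 point per library, with No MM 1, 2 and 5 in blue, No MM 3 and No MM 4 in orange and MM in red. The points run from MM 6 (40.9 CPM of Gm10736) up to No MM 1 (200.0 CPM), and the orange points lie between No MM 2 and No MM 1 on the Rpl41 axis.

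A fit with 3 levels separated the distance of No MM 3 and No MM 4 from MM and the distance of No MM 1, 2 and 5 from MM. For Fut1 the log2 differences were 6.36 (SE 0.414) and 0.53 (SE 0.375), and for Mfsd4 they were 6.00 (SE 0.492) and 0.55 (SE 0.451). Lphn2 stood at 3.85 (SE 0.207) and 0.92 (SE 0.189), and Tmem255a at 3.85 (SE 0.358) and 1.0 (SE 0.331). In these 4 genes the immunoglobulin-rich libraries were farther from MM than the other No MM libraries by a log2 of 2.85 to 5.82. For Apoa2 the differences were 4.76 (SE 0.694) and 2.17 (SE 0.644). Cnpy2 had 1.53 (SE 0.230) and 0.73 (SE 0.209), so both kinds of No MM library were above MM. Gm10736 had 1.17 (SE 0.327) and 1.28 (SE 0.293), with a difference of -0.11 (SE 0.374) between the 2 kinds of No MM library. The medians over all tested genes were -0.02 and -0.001 on the same scale. Under scaling by library totals alone they were -0.60 and -0.18, and the 2 differences of each gene have to be read relative to them.

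**Figure D3:**
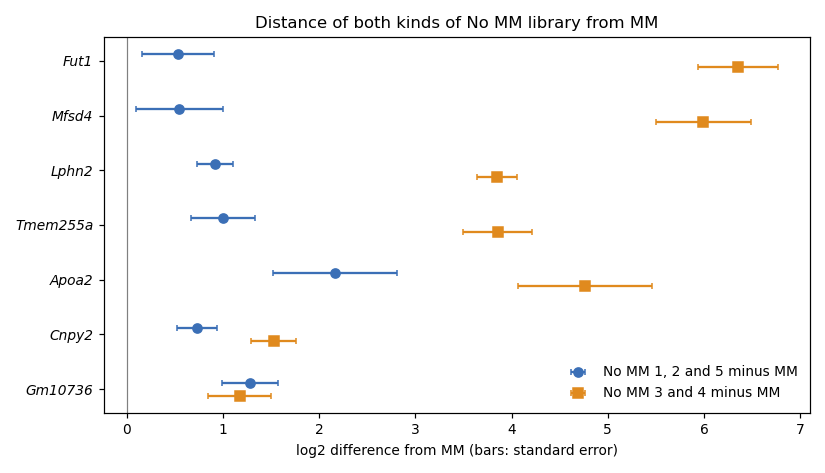
Log2 difference from MM, with its standard error as a bar, for No MM 1, 2 and 5 (blue circles) and for No MM 3 and No MM 4 (orange squares), for the 7 genes past the filter. The distance between the symbols is widest for Fut1 and Mfsd4, narrow for Cnpy2, and absent within error for Gm10736.

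Marker lists of other cell types moved with these 2 libraries. The mean log2 CPM of 11 plasma cell markers was 8.31 in both No MM 3 and No MM 4, against 4.52 to 5.50 in the other 8 libraries. In both, 10 of the 11 markers were above all other libraries. The exception, Mzb1, was below No MM 1 (87.6 CPM) and No MM 2 (70.4 CPM), at 62.9 and 65.5 CPM in No MM 3 and No MM 4. Irf4, a transcription factor of plasma cells, stood at 1007 and 760.5 CPM. The mean over 13 B cell markers was lower there, at 0.46 and 0.76 against 3.26 to 5.16, and 10 of the 13 were below all other libraries in both. Cd79b, a signaling chain of the B cell receptor, was instead above all other libraries in both, at 165.7 and 212.7 CPM against 60.9 to 123.4 CPM. Rag1 in No MM 4 (2.61 CPM) and Cr2 in No MM 3 (0.582 CPM) lay above the lowest of the other 8 libraries (2.41 and 0.495 CPM). Osteoblast markers were at 6.37 and 6.03, against 8.22 to 10.07. The means of the erythroid, neutrophil, osteoclast and megakaryocyte lists were also below the range of the other 8 libraries in both. The same held for the means of the monocyte and macrophage, dendritic cell, and T and NK cell lists. It did not hold for the skeletal muscle, endothelial, adipocyte and stroma, nerve and hepatocyte lists. Single markers were below all other libraries in both for 5 of 10 monocyte and macrophage, 4 of 10 dendritic cell and 5 of 12 T and NK cell genes. Bst2, of the dendritic cell list, was above all other libraries in both, at 180.1 and 150.8 CPM against at most 143.8 CPM. Ly6c2, of the monocyte and macrophage list, was highest in No MM 4, at 790.7 CPM against at most 721.4 CPM in the other 8. The part of these cell types in the levels of Fut1, Mfsd4, Shisa7, Lphn2, Tmem255a, Apoa2 and Cnpy2 was not tested.

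Between MM and No MM, no list differed after adjustment over 17 values (exact permutation test, two-sided). The immunoglobulin share had an adjusted p of 0.641 and an unadjusted p of 0.119 in that exact test, and the smallest unadjusted p, 0.0397, belonged to the dendritic cell list (exact permutation test, adjusted p = 0.607). With groups of 5, the smallest p the exact test allows is 0.00794.

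**Figure D4:**
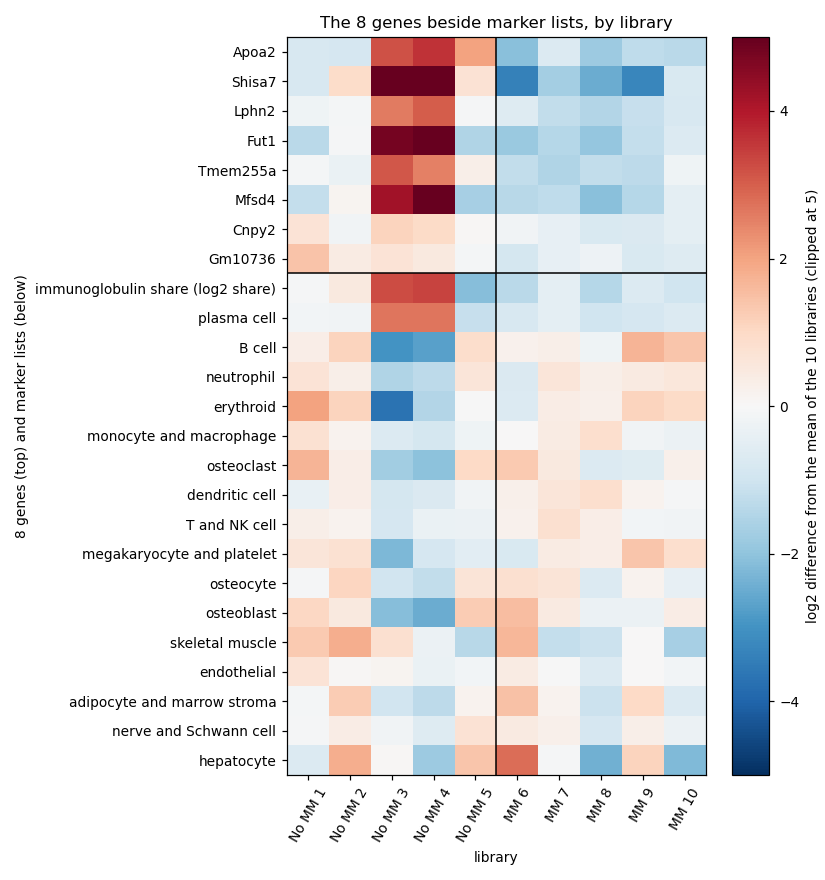
Log2 difference of each gene (upper rows) and of the immunoglobulin share and each marker list (lower rows) from its mean over the 10 libraries, in red where higher and in blue where lower, clipped at 5. The columns of No MM 3 and No MM 4 are red for the genes, darkest for Fut1, Mfsd4 and Shisa7, and for the immunoglobulin share and plasma cell markers, and blue for B cell, osteoblast and osteoclast markers.

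The genes nearest to Fut1 shared its order of libraries. Fgf21, which encodes a secreted metabolic hormone, lies on the opposite strand. The gap between the genes is 1799 bases in GENCODE M21, which starts Fut1 earlier than the table does. It had 6, 5, 5004, 4658 and 7 counts in No MM 1 to 5 and 2, 19, 3, 63 and 111 counts in MM 6 to 10. Its log2 difference between No MM 3 and No MM 4 and MM was 7.30, while No MM 1, 2 and 5 were below MM as a group by 2.54 on the log2 scale. The highest MM counts were those of MM 9 and MM 10, and MM 6 and MM 8 were below No MM 1, 2 and 5. Izumo1, which encodes a sperm surface protein, starts 752 bases after Fut1 on the same strand. It had 0, 17, 324, 345 and 15 counts in No MM 1 to 5, and 14, 17, 15, 22 and 10 in MM 6 to 10. Neither gene passed the threshold between MM and No MM (adjusted p = 0.315 for both in edgeR). Within 100 kb of the start of Fut1, 10 of 13 tested genes were highest in No MM 3 and No MM 4, against 24% of all tested genes. The median log2 difference of the 13 genes between those libraries and MM was 3.46.

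**Figure D5:**
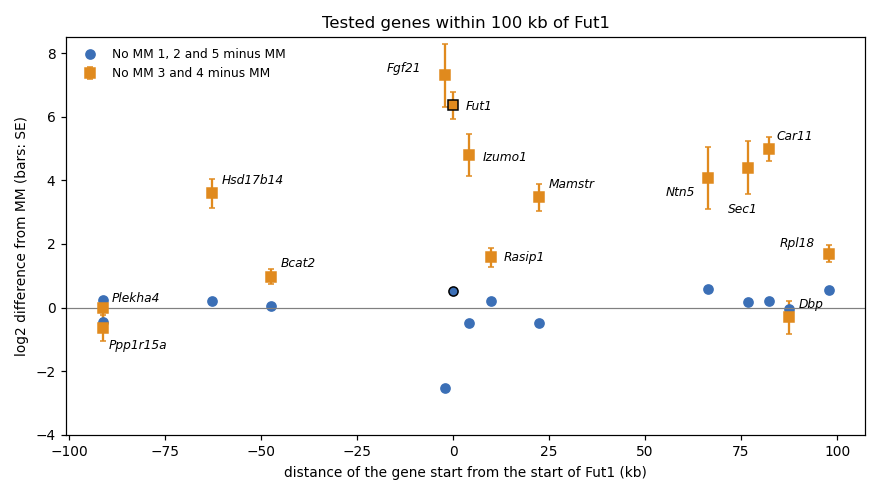
Log2 difference from MM of the tested genes within 100 kb of Fut1, by the distance of their start from that of Fut1 in kb, for No MM 3 and No MM 4 (orange squares, with standard error) and No MM 1, 2 and 5 (blue circles, no error shown); Fut1 is outlined in black. Orange squares of 10 of the 13 neighbors belong to genes that were highest in both libraries, up to 7.30 for Fgf21, while the blue circles lie near 0, apart from that of Fgf21 at -2.54.

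The surroundings of the other genes were less uniform. Of the tested genes within 100 kb, No MM 3 and No MM 4 were highest for 5 of 9 around Shisa7, 1 of 11 around Apoa2, 1 of 10 around Cnpy2, 1 of 2 around Tmem255a, 1 of 2 around Mfsd4 and 0 of 2 around Gm10736. The gene near Cnpy2 was Il23a, a cytokine subunit gene, with a log2 difference of 6.66 between those libraries and MM. Pan2 and Cs, the direct neighbors of Cnpy2, were not highest there. Lphn2 had no tested gene within this distance.

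Relatives of the 8 genes were read from lists of names, leaving out the 8 genes themselves. Counts and medians of these lists for MM against No MM include No MM 3 and No MM 4 throughout. None of their genes passed an adjusted p of 0.05 in edgeR in either direction, in a table where 0% of all genes did. In the canopy family and its endoplasmic reticulum partners, 13 of 14 genes had a lower mean in MM and 1 a higher one, with a median log2 fold change of -0.79 against -0.03 for all tested genes. Under scaling by library totals alone, 11 were lower and 3 higher, with a median of -0.37 against 0.30 for all tested genes. No MM 3 and No MM 4 were highest for 9 of the 14, or 8 under library totals alone, where 24% and 11.2% of all tested genes were. These shares of all genes are the background for each count of this kind that follows. Pdia4, a protein disulfide isomerase, was at 1154 and 831.4 CPM there and between 80.4 and 123.9 CPM elsewhere. The chaperone gene Hsp90b1 was at 2813 and 1946 CPM, against 453.7 to 590.5 CPM. Cnpy3 was highest in the same 2 libraries, and Cnpy4 was not.

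Among fucosylation genes, 12 of 15 were lower and 3 higher in MM, with a median of -0.30. Under scaling by library totals alone the split was 8 lower and 7 higher, with a median of -0.013 against 0.30 for all tested genes. Under that scaling, counts of lower and higher genes have to be read relative to 0.30, also for the lists that follow. The highest 2 libraries were No MM 3 and No MM 4 for 7 of the 15, or 4 under library totals alone. Fut8, which adds the core fucose of N-glycans, stood at 459.0 and 664.5 CPM there, against 63.7 to 86.7 CPM in the other libraries. Fut4 and Fut7, which act on selectin ligands of leukocytes, were instead lower there, with log2 differences from MM of -1.41 and -1.96. Sec1, a gene near Fut1, was at 4.85 and 6.42 CPM and no higher than 0.624 CPM elsewhere.

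The MFSD transporters had 6 of 15 lower and 9 higher (median 0.14), or 3 and 12 under library totals alone (median 0.49). Of these genes, 4 were highest in No MM 3 and No MM 4 (2 under library totals alone), near the background of 24%. Mfsd2a, a lysophospholipid transporter, was at 5.91 and 3.05 CPM in them and at most 0.394 CPM elsewhere. Of the latrophilins and their ligands, 3 of 10 were lower and 7 higher (median 0.07), or 2 and 8 under library totals alone (median 0.39). In this list, 2 of 10 genes, Lphn1 and Lphn3, were highest in No MM 3 and No MM 4 (1 under library totals alone), whereas the ligand genes Tenm4 and Flrt2 were lower there than in MM by 3.54 and 1.80 on the log2 scale. Of 11 apolipoprotein and lipoprotein genes, 3 were lower and 8 higher (median 0.31), or 2 and 9 under library totals alone (median 0.62). Only Apod was highest in the 2 libraries. The Shisa and receptor list had 3 of 6 lower, with Shisa5 highest in those libraries (no gene under library totals alone). Tmem255b, the paralog of Tmem255a, had a log2 fold change of -0.54 and was not highest there.

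Genes with the most similar profile were ranked by the root-mean-square difference in centered log2 CPM over the 10 libraries. Fut1 and Mfsd4 were each other's nearest gene, at 0.29, and Catsperd, a gene of the sperm calcium channel, was near both. For Fut1 it came next (0.46), before Chst1 (0.47), and for Mfsd4 it came (0.43) after Hepacam2 (0.41). Tmem255a was nearest to Lphn2 (0.38) and then to Scrn1 (0.41), and Lphn2 to Hpdl (0.32), Pon3 (0.33) and Praf2 (0.37). The genes nearest to Apoa2 were farther away, with the immunoglobulin gene Igkv3-12 at 0.69, Xlr at 0.78 and Scrn1 at 0.79. Those nearest to Cnpy2 were D17Wsu104e (0.13), Gm7332 (0.14) and Naglu (0.15), a lysosomal enzyme gene. Gm10736 was nearest to the ribosomal protein gene Rpl36 (0.21), then to Gm10076 (0.22) and Rpl41 (0.24), of which the last 2 hold its sequence. These distances share libraries and scaling, and genes with few counts are noisier.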

How the data were processed

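RNA-seq libraries of osteocytes from 5 MM and 5 No MM mice were grouped by the sample labels, and all 10 were used. For each gene and library, the authors deposited read counts, a signal (each count over the size factor of its library) and FPKM. They also deposited log2 fold changes and p-values of their own, which were not used. The submitters' processing notes name FastQC 0.11.5 and STAR. The counting program, genome build and annotation are not given in the sources used here. GENCODE M21 (GRCm38) held 22284 of the identifiers, 68.4% with the same coordinates, among them 5 of the 8 genes. Coordinates of genes are those of the table.

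The counts were filtered with filterByExpr of edgeR 4.0.16 in R 4.3.3 (16186 of 22548 genes kept), scaled by TMM, and fitted with glmQLFit and glmQLFTest, with Benjamini-Hochberg adjustment over all tested genes. A second fit had 3 levels (MM; No MM 1, 2 and 5; No MM 3 and 4). Log2 CPM used a prior count of 2. The scripts were tested on simulated data. P-values set a difference between groups against the spread between these libraries, 1 per mouse. Limits of 3 counts cover counting error only. Immunoglobulin genes were 234 genes taken by name. Alternatives were DESeq2 1.42.0, other size factors, other filters, immunoglobulin genes left out or their share as covariate, and libraries left out. Genes were named if they were among the 8, in the family and marker lists, among the 3 nearest in profile, or direct neighbors; Il23a and other genes within 100 kb were chosen after their values were seen, as was Igkv4-91. The 8 genes and the lists were chosen with earlier results of these data known.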

Additional observations from a re-analysis of the deposited data

Results flagged for a closer look

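In 2 of 50 sets of 5 values, 1 library stood apart from the other 4 by Dixon's criterion, where chance gives about 2.5. Tmem255a in MM was highest in MM 10, with a gap of 0.790 of the range of the group. Its log2 CPM was 1.20 there and between -0.08 and 0.19 in the other MM libraries. The neutrophil marker list in MM was lowest in MM 6, with a gap of 0.744 of the range, at a mean log2 CPM of 8.90 against 9.90 to 10.2.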

How the results depend on the processing

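No paired analysis was possible because mice 1 to 5 are No MM and mice 6 to 10 are MM, so the groups share no number. DESeq2 called 155 genes lower and 34 higher, against 0 and 0 in edgeR, and 1 gene of the family lists, Pdia4, lower. Without No MM 3 and No MM 4, the log2 fold change was -2.17 for Apoa2, -0.93 for Lphn2, -0.55 for Fut1, -1.02 for Tmem255a and -0.56 for Mfsd4. For Cnpy2 it was -0.75 and for Gm10736 -1.31. With the immunoglobulin share as covariate it was -1.06 for Lphn2, -0.46 for Fut1, -1.26 for Tmem255a and -0.25 for Mfsd4. With the same covariate, Apoa2 was at -2.80, Cnpy2 at -0.72 and Gm10736 at -1.18. The cause was not tested. With 1 library left out, the ranges were -4.04 to -3.19 for Apoa2, -3.03 to -2.17 for Lphn2, -5.38 to -4.23 for Fut1, -3.10 to -2.13 for Tmem255a, -5.03 to -3.56 for Mfsd4, -1.25 to -0.95 for Cnpy2 and -1.38 to -0.97 for Gm10736.

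Scaling by library totals alone moved the median log2 fold change of all genes from -0.03 to 0.30. The difference between No MM 3 and No MM 4 and MM was then 3.26 for Lphn2, 5.77 for Fut1, 3.28 for Tmem255a, 0.95 for Cnpy2 and 0.60 for Gm10736. The median of that difference over all tested genes moved from -0.02 to -0.60, and the values of the genes have to be read relative to it. MM was below all No MM libraries for 14 genes and below No MM 1, 2 and 5 for 64, and No MM 3 and No MM 4 were highest for 1811, with Lphn2 and Gm10736 in the first pair of counts as before and the same 6 filtered genes in the last.

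Without No MM 3 and No MM 4, the difference of MM from No MM changed sign for B cell (-0.10), neutrophil (-0.28), erythroid (-0.64), monocyte and macrophage (-0.075), osteoclast (-0.86), osteocyte (-0.43), osteoblast (-0.58) and adipocyte and stroma (-0.27) markers. With 1 library left out, the ranges were -0.010 to 1.42 for erythroid, -0.18 to 0.76 for osteoclast, -0.051 to 0.53 for osteocyte, -0.24 to 0.14 for nerve and -1.03 to 0.28 for hepatocyte markers. None of the lists passed the threshold in any of these.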

Other observations

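Among the MM libraries, Igkv4-91 made up 28.2% and 47.7% of the kappa variable reads in MM 9 and MM 10, against 0.303% to 3.91% in the other 3. Fgf21 had 63 and 111 counts there, against 2 to 19 in the other MM libraries. Fut1 was at 1.74 and 2.45 CPM in these 2 libraries and at 1.04 to 1.46 CPM in MM 6, 7 and 8, while No MM 2 stood at 3.77 CPM. These values were picked after they were seen and were not tested.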
